A study of Mus musculus with 8 samples.

Results

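The regions described here were the Brg1 peaks that lay at the ends of genes in mouse pro-B cells treated with dTAG-13. Brg1 was mapped by ChIP-seq, in which DNA fragments bound to a protein are precipitated with an antibody and sequenced. A peak was taken when its summit, the base with the most fragments, lay on a numbered chromosome or X within 1 kb of either bound of a protein-coding gene of GRCm38. The rule used position only, and it found 967 of the 5206 peaks of the list (18.6%, exact Clopper-Pearson 95% interval 17.5 to 19.7%). Another 2048 summits lay inside genes and 2182 between genes, and 9 peaks on other sequences were left out.

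All groups were pro-B cells immortalised with the Abelson virus A-MuLV, and in all of them a modified gene had replaced endogenous EBF1. EBF1 is a transcription factor that B-cell development requires, and the dTAG is a degron through which the small molecule dTAG-13 sends a tagged protein to degradation. The Brg1 libraries came from the line EBF1-dTAG_N, kept for 6 h in 0.5 µM dTAG-13 or, for the control, in DMSO. The EBF1 libraries came from another line, EBF1-dTAG_C, under the same treatments. Chromatin for Brg1 was fixed with EGS and then formaldehyde, and chromatin for EBF1 with formaldehyde alone. The treatment labels give the controls as 6 h of DMSO and the titles as 0 h. Each group was 1 library, so no difference between groups has a replicate check, and the intervals given for shares cover counting error only. EBF1 itself was not mapped in the line used for Brg1. Peak lists hold no RNA, so the labelled cell type could not be checked against expressed markers.

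Brg1, encoded by Smarca4, is an ATPase of the BAF chromatin remodelling complexes. These complexes slide or evict nucleosomes and so open DNA to transcription factors, and they bind both distal enhancers and promoters. Active promoters carry a stretch poor in nucleosomes just upstream of the transcription start, flanked by well-placed nucleosomes. Many mouse promoters lie in CpG islands, stretches rich in the dinucleotide CpG that often serve genes used in many cell types.

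The promoters below show the range of sequence at which these peaks were found. Each is the 250 bases upstream of a start site listed by RefSeq in GRCm38.p6, written 5′ to 3′ on the strand of the gene, with CpG dinucleotides in capitals. Cd72 (chr4:43454627-43454876, minus strand) had the highest gene-end peak. Igll1 (chr16:16863986-16864235, minus strand) and Cd79a (chr7:24897247-24897496, plus strand) encode parts of the pre-B receptor and also had Brg1 peaks in DMSO. Dusp5 (chr19:53528895-53529144, plus strand) had one of the widest peaks, and the start of Zfp91 (chr19:12796124-12796373, minus strand) lies inside Lpxn, which is read from the other strand.
Cd72: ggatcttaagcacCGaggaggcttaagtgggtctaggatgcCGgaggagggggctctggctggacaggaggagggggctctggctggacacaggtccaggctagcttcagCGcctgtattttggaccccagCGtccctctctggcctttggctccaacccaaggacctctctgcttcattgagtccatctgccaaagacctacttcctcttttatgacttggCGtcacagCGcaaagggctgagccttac
Igll1: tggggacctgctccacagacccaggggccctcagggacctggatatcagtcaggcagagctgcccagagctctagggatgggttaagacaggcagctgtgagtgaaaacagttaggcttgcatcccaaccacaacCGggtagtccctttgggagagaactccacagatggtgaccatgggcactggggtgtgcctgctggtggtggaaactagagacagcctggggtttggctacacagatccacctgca
Cd79a: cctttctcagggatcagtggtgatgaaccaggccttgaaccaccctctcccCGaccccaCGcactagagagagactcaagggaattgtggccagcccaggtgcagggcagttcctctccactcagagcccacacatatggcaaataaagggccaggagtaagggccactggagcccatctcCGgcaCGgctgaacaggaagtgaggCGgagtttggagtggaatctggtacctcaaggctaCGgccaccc
Dusp5: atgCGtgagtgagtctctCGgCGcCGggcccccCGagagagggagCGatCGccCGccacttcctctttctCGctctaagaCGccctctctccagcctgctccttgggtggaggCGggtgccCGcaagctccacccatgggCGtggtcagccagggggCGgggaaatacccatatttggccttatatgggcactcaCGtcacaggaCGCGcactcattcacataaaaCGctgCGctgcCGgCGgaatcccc
Zfp91: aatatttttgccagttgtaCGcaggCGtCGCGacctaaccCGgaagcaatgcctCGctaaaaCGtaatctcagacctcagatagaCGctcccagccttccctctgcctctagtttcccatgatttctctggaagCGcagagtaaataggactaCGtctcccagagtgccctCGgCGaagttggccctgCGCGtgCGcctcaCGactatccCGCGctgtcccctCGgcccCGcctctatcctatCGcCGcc
These windows held 6 CpG in Cd72, 1 in Igll1 and 6 in Cd79a, against 21 in Dusp5 and 22 in Zfp91. The Brg1 summit lay 147 bp upstream of the listed start of Cd72 and 177 bp upstream of those of Igll1 and Cd79a, inside the windows. At Dusp5 it lay 278 bp and at Zfp91 600 bp upstream, outside them.

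Most of the gene-end peaks were at gene starts. Strand could be read from the reference for the nearest gene of 789 peaks, and in 713 of them (90.4%, 88.1 to 92.3%) the nearest bound was the start of the gene. The other 76 were nearest to the end of a gene, and for 178 the strand was not read. Counted by gene, 731 of 17274 genes with strand had a peak within 1 kb of the start (4.23%, 3.94 to 4.54%) and 92 within 1 kb of the end (0.533%, 0.430 to 0.653%). Of the 76 summits at gene ends, 8 were also within 1 kb of a start site listed for some gene. Enrichment is given as the authors' fold enrichment, the fragment pileup at the summit plus 1 over the local background plus 1. The highest peaks at ends were 756 bp past the end of Yipf1, a membrane protein of the Golgi (fold enrichment 7.82), inside Dnmt3l, a cofactor of DNA methyltransferases (7.40), 120 bp past Gmfb (7.36), and 475 bp past Ctla4, an inhibitory receptor of T cells (7.17).

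Summits lay on both sides of the gene start. The 100 bp just upstream of it held fewer than each 100 bp step out to 600 bp upstream and 700 bp downstream. Steps beyond these distances held fewer still. In steps of 100 bp, 23 summits fell in the 100 bp just upstream of the gene start and 45 in the 100 bp just downstream. The highest step on the upstream side held 43, between 200 and 300 bp, and the highest on the downstream side 88, also between 200 and 300 bp. In all, 466 of the 713 summits (65.4%) were downstream of the gene start and 247 upstream. The bound of a gene is its outermost annotated start, and measured from the nearest of all start sites listed by RefSeq 433 summits (60.7%) were downstream. The 100 bp just upstream then held 30 summits and the 100 bp just downstream 63, against 46 between 200 and 300 bp upstream and 98 between 200 and 300 bp downstream. With either reference point the 100 bp just downstream thus held more summits than any upstream step, and fewer than the next steps downstream. Around gene ends no 100 bp step held more than 7 of the 76 summits.

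**Figure D1:**
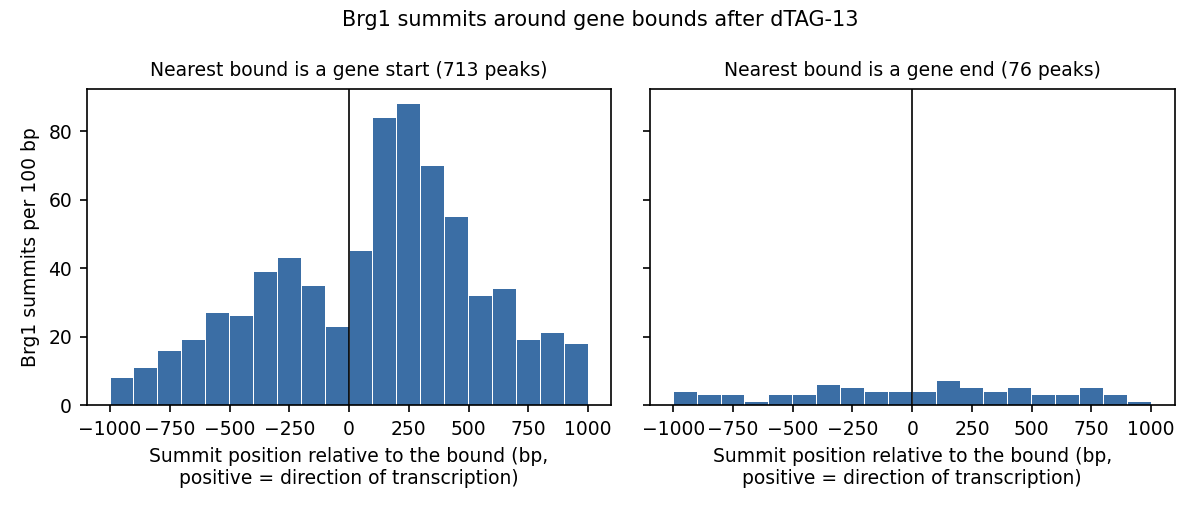
Number of Brg1 summits per 100 bp (y axis) by position relative to the nearest gene bound in bp (x axis, positive in the direction of transcription), for 713 peaks nearest to a gene start (left) and 76 nearest to a gene end (right). The vertical line marks the bound. Near starts the counts reach 88 on the downstream side and 43 on the upstream side with 23 in the 100 bp just upstream of the bound, and near ends they are low throughout.

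Gene-end peaks were narrower than the other peaks of the list. Their median width was 288 bp (quartiles 228 and 392 bp), against 328 bp for peaks inside genes and 340 bp for peaks between genes. Under 250 bp were 332 of the 967 (34.3%) against 24.2% of the 4230 other peaks, and over 500 bp were 116 (12.0%) against 23.9%. The widest lay at Atp6v0a1, a subunit of the vacuolar proton pump (1256 bp), Trmt1, a tRNA methyltransferase (1243 bp), Dusp5, a phosphatase of ERK kinases (1159 bp), Cd69, an early activation antigen of lymphocytes (1026 bp), and Cd37, a tetraspanin of B cells (1017 bp). Peaks of 1 library are not replicates of one another, so these differences are descriptions of the list and carry no test.

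The enrichment of gene-end peaks was slightly lower too. The fold enrichment had a median of 4.27 at gene ends (quartiles 3.82 and 4.85), 4.44 inside genes and 4.54 between genes. The difference of the medians from all other peaks was small, -0.188, and it was -0.111 for summits within 500 bp of a bound. At least 5-fold enrichment was reached by 200 gene-end peaks (20.7%) and by 31.2% of the others. The fragments at the summit, recovered from the authors' fold enrichment and p-value, numbered 17 at the median gene-end peak and 18 at the median of the others, so the typical member rested on few reads. The local background was 3.09 fragments at the median gene-end peak and 3.26 at the others. Only 1 member, at Hjurp, a chaperone of centromeric histones, stood on a background over 5 times the lowest of the list.

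The share of gene-end peaks fell off in the strongest part of the list. Ranked by fold enrichment, the lowest quintile of the peaks held 20.4% gene-end peaks, the next quintiles 22.9%, 18.5% and 19.4%, and the highest quintile 11.8% (9.93 to 13.9%). Ranked by width, the share went from 26.3% (23.6 to 29.1%) in the narrowest quintile to 9.90% (8.16 to 11.9%) in the widest. Peaks between genes had a larger share at the top, with 48.4% of the highest quintile by fold enrichment and 40.4% of the lowest, whereas peaks inside genes made up 39.8% and 39.2%. Among as many of the highest peaks by p-value as the Brg1 DMSO list holds, 21 of the 232 on these chromosomes were at gene ends (9.05%).

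**Figure D2:**
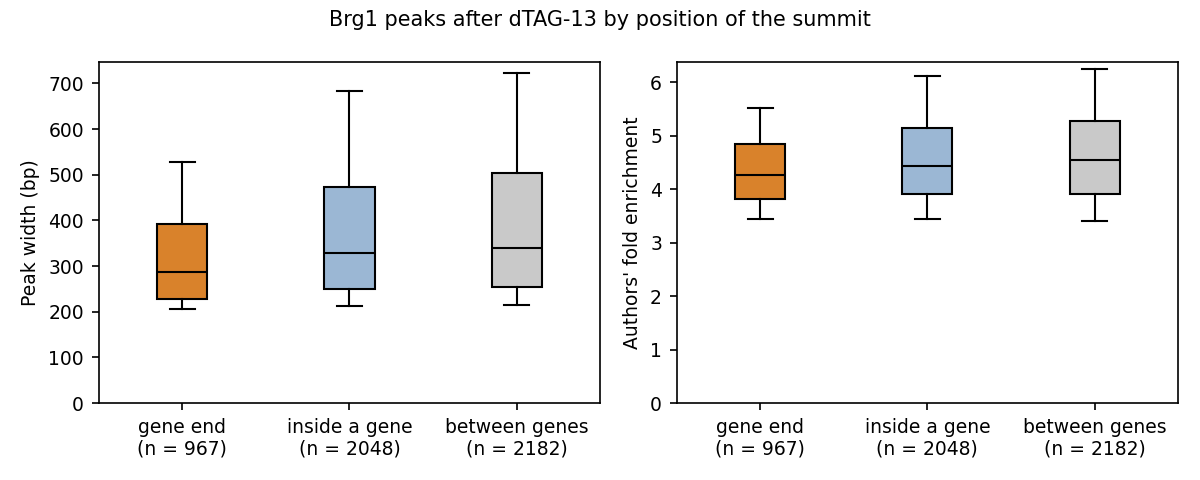
Peak width in bp (left, y axis) and the authors' fold enrichment (right, y axis) of Brg1 peaks after dTAG-13, for 967 peaks at gene ends, 2048 inside genes and 2182 between genes (x axis). Boxes span the quartiles with the median as a line and whiskers reach the 10th and 90th percentiles, and gene-end peaks have the lowest median in both panels (288 bp and 4.27).

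**Figure D3:**
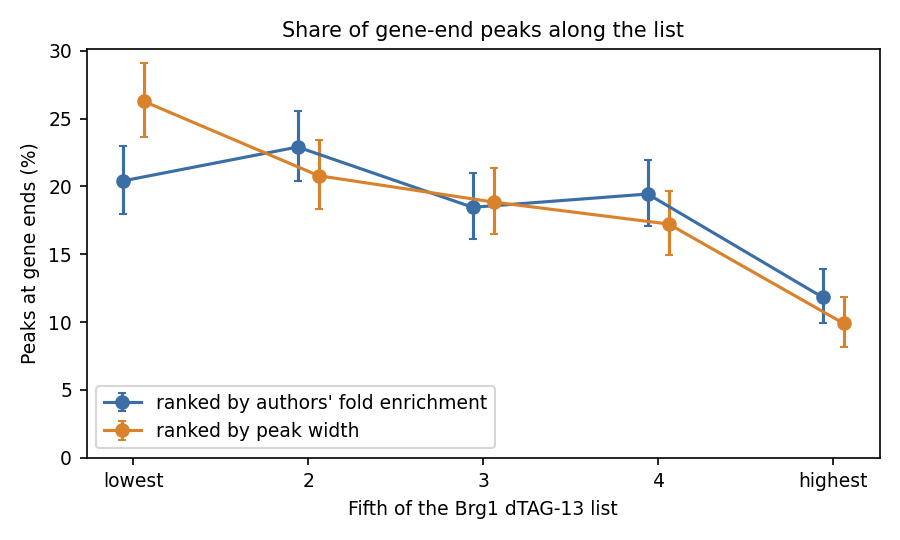
Share of peaks at gene ends in percent (y axis) in each quintile of the Brg1 dTAG-13 list (x axis), ranked from lowest to highest by the authors' fold enrichment (blue) or by width (orange). Bars are exact 95% intervals, and the share is lowest in the highest quintile by either ranking (11.8% and 9.90%).

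The highest gene-end peaks included those at the receptor genes Cd72, Gpr18, Fcgr2b, Cd69, Tlr9 and Treml2 and the phosphatase genes Dusp5 and Dusp2. The peak at Cd72, a coreceptor that restrains B-cell receptor signals, lay at chromosome 4, 43454633 to 43455089, with a fold enrichment of 10.8, 33 fragments at the summit and rank 16 of the whole list. Efr3a, a membrane anchor of a lipid kinase, followed at 9.22, with its summit 918 bp from the gene bound. Gpr18, a G protein-coupled receptor of lymphocytes, reached 8.80 (chromosome 14, 121916022 to 121916596, 510 bp upstream of the start). Fcgr2b, the inhibitory Fc receptor of B cells, reached 8.70 with the summit 39 bp inside the gene (chromosome 1, 170975894 to 170976255). Dusp5 stood at 8.68 with 33 fragments (chromosome 19, 53528516 to 53529674), and Cd69 at 8.64 with 29.

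Further down, Tlr9, a sensor of unmethylated CpG DNA, had a peak of 8.54 whose summit lay 78 bp upstream of the start (chromosome 9, 106222260 to 106222994). Dusp2, another phosphatase of the MAP kinases, had one of 8.05 at 813 bp upstream and a second of 4.14 at 138 bp inside the gene. Gimap5, a GTPase of lymphocyte survival, had a peak of 7.64 at 78 bp upstream. The remaining genes among the 15 highest were Yipf1, Parp11 (7.66), Zfp91 (7.51), Treml2 (7.42), Dnmt3l and Gmfb. From Cd72 at 10.8 to Gmfb at 7.36 these peaks form the far end of a narrow range, since the quartiles of all 967 were 3.82 and 4.85.

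In all, 989 of 21631 protein-coding genes (4.57%) had a gene-end peak, and the gene lists below are set against this share. The lists were drawn up from gene function with earlier results of these data known, and no set test was made. Genes of the early B lineage and the pre-B receptor had a gene-end peak at 15 of 37 members (40.5%, 24.8 to 57.9%). The median over these genes, each by its highest peak, was 5.08, against 4.27 over all gene-end peaks. The latter counts every peak singly, so the measures are not alike, and taking the highest peak of a gene can raise the former. After Cd72 and Fcgr2b came Cd53, a tetraspanin (6.90, 29 fragments, 15 bp inside the gene), and Vpreb1, a part of the surrogate light chain (6.44, 97 bp upstream of the start). Igll1, the other part of the surrogate light chain, stood at 5.09 with 15 fragments, and Cd79a, the Ig-alpha signalling chain, at 5.08 with 25 fragments. Vpreb2 had 5.04, Cd79b, the partner of Cd79a, 4.54, and Ptprc, the CD45 phosphatase, 5.26. Vpreb1 and Vpreb2 are near copies of each other, so reads from them may not be told apart.

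The peak at Pax5, the commitment factor of the B lineage, was modest, at 4.06 with 17 fragments, 275 bp inside the gene (chromosome 4, 44710278 to 44710638). Pou2af1, a coactivator of octamer-binding factors, carried 3 gene-end peaks of 3.64, 3.35 and 3.15 within 1 kb on either side of its start. Il7r, the receptor of interleukin 7, had the lowest of the list at 2.62, 37 bp upstream of the start. Lyn, a Src-family kinase, was a member only just, with its summit 994 bp from the gene bound. The members of this list that had no gene-end peak included Ebf1, Rag1, Rag2, Blnk, Syk and Btk.

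B-lineage transcription factors had gene-end peaks at 12 of 28 members (42.9%, 24.5 to 62.8%), with a median of 4.68. Foxp1, a forkhead factor of early B cells, had 6.03 inside the gene and 4.81 upstream of the start. Myb, required in lymphoid progenitors, had 5.61 (chromosome 10, 21161066 to 21161295, 165 bp upstream), Etv6, an ETS repressor, 5.41, and Tcf12, an E protein, 5.09. Mef2d had a pair of peaks upstream of its start (5.06 and 4.69). Id3, an inhibitor of E proteins encoded by a gene of only 1571 bp, had 4.77 near its start and 4.14 near its end. Tcf3, the E2A factor that acts with EBF1 in early B cells, had 4.41. Bach2, Bcl11a and Cux1 lay between 3.47 and 3.70.

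Immediate early genes and AP-1 factors, which cells switch on within minutes of a stimulus, had gene-end peaks at 10 of 35 members (28.6%, 14.6 to 46.3%), with a median of 5.00. Dusp5 and Dusp2 led, followed by Ier2 with 5.47 and 4.59, Jund with 5.22 and Myc with 5.15. At Myc the summit was 390 bp outside the gene, with 16 fragments. Jun, the partner of Fos in AP-1, had 4.59 at 728 bp upstream of its start, and Atf4, the effector of the integrated stress response, 3.47. Cell cycle and survival genes had 7 of 30 (23.3%, 9.93 to 42.3%): Myc, Socs1 (5.11), Socs2 (4.85), Rb1 (4.84), E2f2 (4.14), Ccnd3 (4.07, 604 bp past the end of the gene) and Mycn (2.77). Socs1 and Socs2 are feedback inhibitors of JAK-STAT signalling.

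Antigen presentation genes had 6 of 17 (35.3%, 14.2 to 61.7%), all of them on chromosome 17. These were Tapbp (4.06), Tap2 (3.90), Psmb9 and Tap1, which share a peak of 3.70 that lies 316 bp inside Psmb9 and 542 bp upstream of Tap1, Psmb8 (3.35) and H2-Q4 (3.15). Of the 5 members on other chromosomes, 0 had a peak. H2-Q4 belongs to a family of near-identical copies, so its value is uncertain. Their median fold enrichment by gene, 3.70, was below the 4.27 of all gene-end peaks counted singly. Chromosome 17 had a higher local background than the others, as given further on.

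Genes of general cell function had lower shares than the B-lineage lists. Chaperones had 5 of 21 (23.8%, 8.22 to 47.2%), with Hsp90ab1 at 5.00 and 3.91 and Cct3, Cct8, Hspa4 and Hspa9 at 3.83, 3.61, 3.09 and 2.82. Splicing factors had 6 of 41 (14.6%, 5.57 to 29.2%), led by Sf3b1 (4.75), Hnrnpl (4.14) and Srsf5 (3.68). Proteasome subunits had 5 of 34 (14.7%, 4.95 to 31.1%), among them Psmd7 (3.92) and Psma7 (3.47). Psmb9 and Psmb8 on chromosome 17 are counted here too, and of the 31 members on other chromosomes 3 had a peak. Translation factors had 3 of 32 (9.38%), Eif5 (5.36), Eif3d (5.09) and Eif3a (3.99). Subunits of the BAF complex itself had 4 of 27 (14.8%, 4.19 to 33.7%): Bcl7a (4.84), Bcl7b (4.00), Phf10 (3.99) and Arid1b (3.68). Phf10 and Arid1b lie on chromosome 17, and of the 25 members on other chromosomes 2 had a peak. Smarca4, which encodes Brg1, had none. Ribosomal proteins of the large subunit had 1 of 46 (Rpl23, 3.92) and those of the small subunit 2 of 31 (Rps26 at 3.77 and Rpsa at 3.68). RNA polymerase II and Mediator had 1 of 42, a summit 833 bp inside the end of Med29 (5.09).

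Lists for other cell types had 1 or 2 genes each with a gene-end peak, at shares from 5.00% to 10.0%. T-cell genes had 2 of 20 (10.0%, 1.24 to 31.7%), Lat, an adaptor of T-cell receptor signalling, at 5.72 and Cd3d at 4.85, the latter near the end of the gene. The summit at Lat was also within 1 kb of the end of Spns1. Myeloid genes had 2 of 20, Fcgr3 (4.89 and 4.54, both past the end of the gene) and Tlr4 (4.60). Erythroid and megakaryocyte genes had 1 of 19 (Hbb-bt, 5.00, near the gene end) and neuronal genes 1 of 20 (Tubb3, 3.28). The intervals of these lists, as of the ribosomal, polymerase, translation and BAF lists, hold the 4.57% of all genes. Those of the chaperone, splicing and proteasome lists lie above it. So do those of the B-lineage, immediate early, cell cycle and antigen presentation lists.

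**Figure D4:**
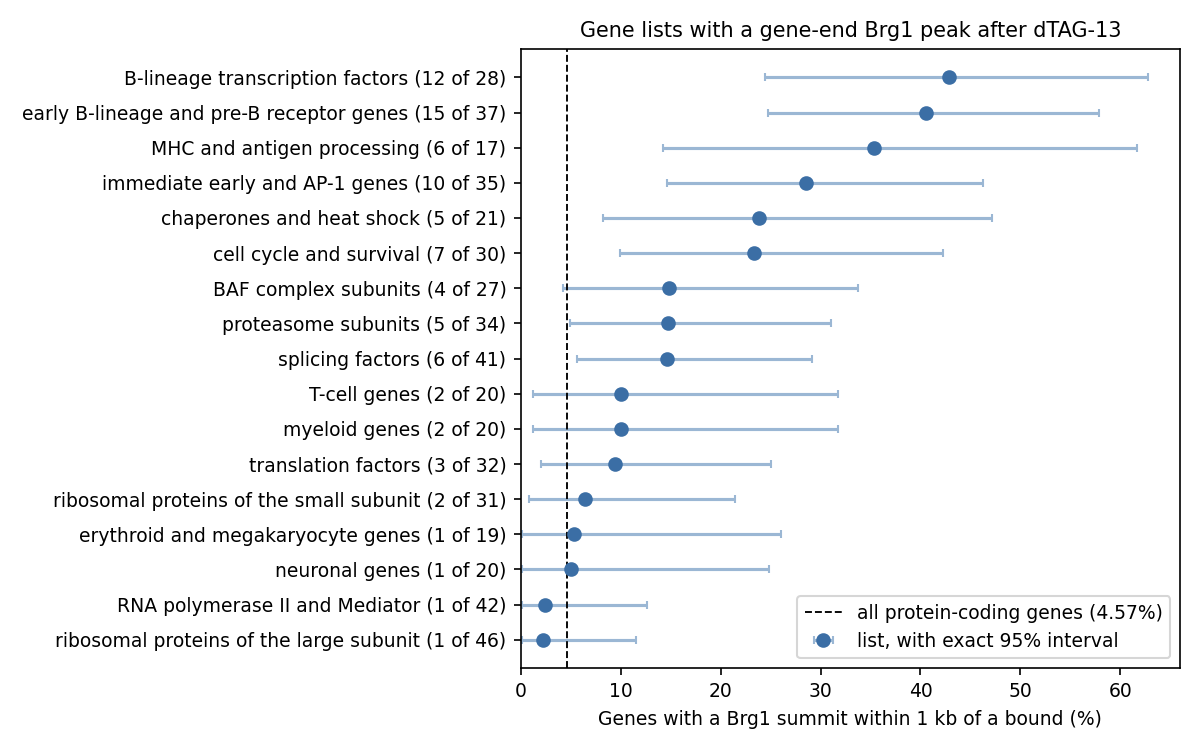
Share of the genes of each list that had a Brg1 summit within 1 kb of a bound in percent (x axis), with exact 95% intervals, for 17 lists (y axis, with the number of genes with a peak and the number in the list). The dashed line is the share of all protein-coding genes, 4.57%, and B-lineage factors (42.9%) and early B-lineage genes (40.5%) stand highest.

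Some peaks served more than 1 gene. Of the 967, 107 (11.1%, 9.16 to 13.2%) were within 1 kb of bounds of 2 or more genes, and 60 (6.20%, 4.77 to 7.92%) were within 1 kb of starts on both strands. The highest of these lay at the starts of Zfp91, a ubiquitin ligase, and Lpxn, an adaptor of leukocyte adhesion (7.51, 600 bp upstream of Zfp91 and 836 bp inside Lpxn). Others lay at Rab6a, a GTPase of Golgi traffic, and Mrpl48 (6.13), at Btbd19 and Tctex1d4 (5.75), at Gm46977 and Etv6 (5.41), and at Stkld1 and Surf4 (5.23). The zinc finger genes Zfp943 and Zfp942 on chromosome 17 share another (5.49), but such genes lie in clusters of similar copies, so reads there may not be unique.

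Conversely, 79 of the 989 genes had 2 or more gene-end peaks. Dpp4, a surface peptidase, had 3 around its start (5.62, 5.00 and 3.68), and so had Rel, an NF-kappaB subunit of lymphocytes (3.91, 3.45 and 3.45), and Hmga1, an architectural chromatin protein (4.08, 3.55 and 3.37). Efcab5 and Ssh2 share a start region with 3 peaks of 5.41, 4.69 and 3.74, and Itpr1, a calcium channel of the endoplasmic reticulum, had 5.98, 4.48 and 3.22. Selplg, the ligand of P-selectin, had 6.21 and 4.85. Separate peaks at both ends were found at Strn4, Qrsl1, Arhgap30, Mfsd6, Id3, Gimap9, Lyl1 and Rapgef6, among others. The median gene with a gene-end peak was 23792 bp long, against 17329 bp for all protein-coding genes. Gene-end peaks stood more alone than others, with another Brg1 peak of the list within 5 kb at 275 of 967 (28.4%) against 39.5% of the other peaks.

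The listed promoters of genes with a Brg1 peak at the start were rich in CpG. RefSeq promoters of 300 bases (250 before and 50 after the start) were matched to all 731 genes with strand and a peak at the start and to 17274 protein-coding genes in all. A listed start can lie away from the gene bound, so not every window was at the peak. Of the 713 summits nearest to a gene start, 683 were within 1 kb of a listed start of some gene and 313 within 250 bp. Promoters of genes with a peak at the start held a median of 24 CpG (quartiles 14 and 31) and 63.3% G and C. Over all promoters the values were 14 CpG (quartiles 4 and 24) and 56.3%. The share of genes with a peak at the start grew with CpG content, from 53 of 4900 genes (1.08%, 0.811 to 1.41%) with 0 to 4 CpG to 133 of 1521 (8.74%, 7.37 to 10.3%) with 35 or more. The enrichment went the other way, with a median fold enrichment of 4.73 in the poorest of these classes and 4.20 in the richest. Among the 50 highest gene-start peaks the median promoter held 14 CpG, the same as over all promoters. Single promoters did not all follow the medians. Of those printed above, chosen in part for high or shared peaks, the CpG-poor Cd72 had the highest enrichment (10.8). The CpG-rich Dusp5 (8.68) and Zfp91 (7.51) had higher enrichment than the CpG-poor Igll1 (5.09) and Cd79a (5.08).

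**Figure D5:**
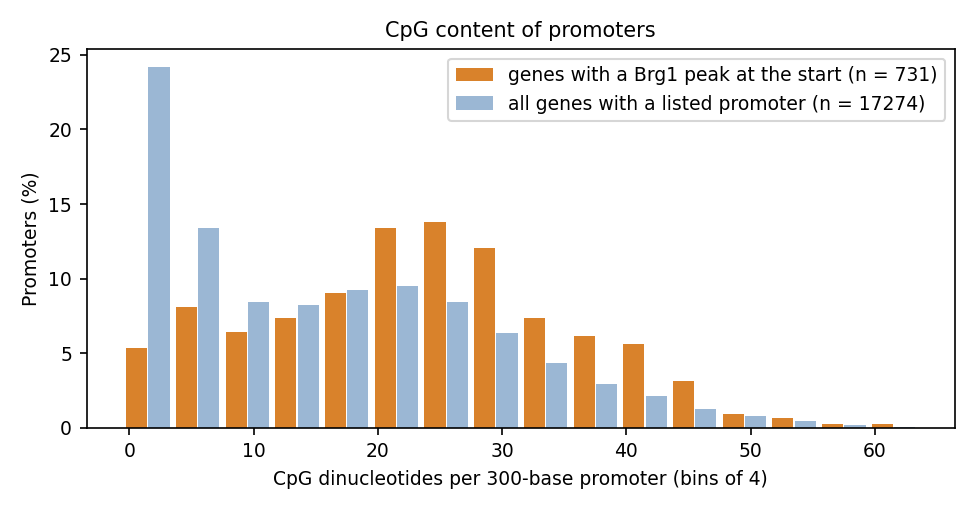
Share of promoters in percent (y axis) by the number of CpG dinucleotides in the 300-base promoter (x axis, bins of 4), for 731 genes with a Brg1 peak at the start (orange) and all 17274 genes with a listed promoter (blue). The blue bars are highest in the first bin and the orange bars between 20 and 31 CpG, with medians of 14 and 24.

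Short sequences were searched on both strands of the same 300 bases. The GC box (GGGCGG), which Sp-family factors bind, was in 494 of the 731 promoters of genes with such a peak (67.6%, 64.1 to 71.0%). It was in 46.9% of all promoters. The core of ETS sites (CCGGAAG) was in 17.2% (14.6 to 20.2%) against 12.1%, and the NRF1 palindrome in 2.87% (1.79 to 4.36%) against 1.35%. The TATA box (TATAAA) was in 6.70% (5.00 to 8.77%) against 13.4% of all promoters, and AP-1 (TGANTCA) in 3.97% (2.67 to 5.65%) against 7.09%. The other searched sequences that hold a CpG were YY1 (AAGATGGCG) in 2.46% (1.47 to 3.86%) against 1.92%, CRE (TGACGTCA) in 3.42% (2.23 to 5.01%) against 2.36%, and the E-box (CACGTG) in 9.30% (7.30 to 11.6%) against 8.01%. For these the interval holds the share of all promoters. The base composition differs between the sets, and its part in these shares was not tested.

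Of the 6 sequences without a CpG, 4 were less frequent, including CCAAT (256 of 731 promoters, against 39.6% of all) and CTTTTC (17.9% against 21.0%). The palindrome of EBF1 was in 9 of the 731 (1.23%, 0.564 to 2.32%) against 0.926% of all promoters, and the ZNF143 sequence in 4 (0.547%) against 0.446%. Overlaps between matches were not removed. A match is a run of letters and not evidence of binding, and the windows lie upstream of many summits, which were more often downstream of the start.

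Chromosome 17 held more gene-end peaks than its gene number gives elsewhere. It had 96, and 104 of its 1059 protein-coding genes (9.82%) had one, whereas the other numbered chromosomes ranged from 3.50% to 6.38%. On X, 4 of 966 genes (0.414%) had one, those at Cfp, Arhgap4, P2ry10 and Gpr174. The local background of all Brg1 peaks had a median of 4.19 fragments on chromosome 17, 2.15 on X, and between 2.92 and 3.35 on each of the others. Among those others chromosome 9 had the highest background (3.35) with the lowest share (3.50%), and chromosome 19 a background of 2.92 with the highest share (6.38%). Chromosomes 1 and 11, next in background (3.26 each), had shares of 5.48% and 5.34%. A relation between share and background over these chromosomes was not tested. In the Brg1 DMSO list the median background was 1.099 at 15 peaks on chromosome 17 and 0.966 at 213 peaks on the other numbered chromosomes. The part of the background in the counts on chromosome 17 and X was not tested. Gene-end peaks on chromosome 17 had a median fold enrichment of 4.06 with 20 fragments, against 4.27 and 17 over all members. Those of the major histocompatibility region included Psmb9, Psmb8, Tap2, H2-DMa and H2-Ob. Without chromosome 17 the list keeps 871 gene-end peaks and 885 genes, 4.30% of 20572.

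Few gene-end peaks were found in the other Brg1 list. Of the 967, 6 overlapped a Brg1 peak of the DMSO list by at least 1 bp (0.620%, 0.228 to 1.35%), against 126 of all 5206 peaks of the dTAG-13 list (2.42%) and 120 of the 4230 peaks away from gene ends (2.84%, 2.36 to 3.38%). Among peaks of at least 5.36-fold enrichment the counts were 1 of 124 gene-end peaks (0.806%, 0.0204 to 4.41%) and 64 of 919 others (6.96%, 5.40 to 8.81%), a split made with the values in view. The DMSO list itself had 234 peaks, of which 10 were at gene ends, so only a small share of the 967 could overlap one of those. Of these 10, 6 were met by a gene-end peak of the dTAG-13 list, and 126 dTAG-13 peaks overlapped the 234 in all. The DMSO library had a lowest background of 0.607 fragments against 2.15 after dTAG-13, a ratio of 3.54. The calling settings are not given, so this ratio may differ from that of sequencing depth. Depth and treatment cannot be told apart in these shares.

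The 6 shared peaks lay at Selplg, H2-DMb2, Igll1, Cd79a, Pygb and Arhgap25. At Cd79a the summits were 18 bp apart, with 25 fragments after dTAG-13 and 12 in DMSO. At H2-DMb2, a chain of the class II peptide editor, the summits were 46 bp apart with 43 and 12 fragments, the former the highest count of all gene-end peaks. At Igll1 they were 71 bp apart with 15 and 16 fragments, so that the count was about equal although the lowest background was higher after dTAG-13. Selplg had 21 and 11 fragments, Arhgap25, a GTPase-activating protein of blood cells, 25 and 11, and Pygb, glycogen phosphorylase, 20 and 8. The fold enrichment at these genes, which each list scales to its own background, was 3.79 to 6.21 after dTAG-13 and 5.22 to 7.35 in DMSO. Gene-end peaks of the DMSO list that had no counterpart included those at Pik3ap1, Ell3 and Fam110a. The nearest dTAG-13 summit was 4208 bp away at Fam110a, 5530 bp at Pik3ap1 and 967067 bp at Ell3.

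EBF1 peaks of the DMSO list were overlapped by 7 of the 967 (0.724%, 0.292 to 1.49%), against 57 of all 5206 (1.09%) and 50 of the 4230 others (1.18%, 0.879 to 1.56%). The intervals overlap, and the lists come from different cell lines. The 7 were at Dusp2, Cdc42ep3, Igll1, Rinl, Cd79b, Ucp2 and Rab5a, and each of the EBF1 peaks was itself at a gene end. Igll1 was the 1 gene-end peak that overlapped both DMSO lists, and its EBF1 peak had a fold enrichment of 12.8, rank 17 of 312. At Rinl, a regulator of Rab GTPases, the EBF1 and Brg1 summits were 44 bp apart, at Ucp2, an uncoupling protein of mitochondria, 63 bp, at Rab5a, a GTPase of early endosomes, 104 bp, and at Dusp2 129 bp. At Cdc42ep3, an effector of Cdc42, they were 180 bp apart and at Cd79b 209 bp.

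The EBF1 DMSO list had 47 peaks at gene ends (15.1% of 312), so 40 of them were met by no gene-end Brg1 peak after dTAG-13. Some were within 1 kb of a Brg1 summit without overlapping its peak, for instance those at Pold4 (506 bp), Dhrs3 (648 bp) and Amz2 (686 bp). At others, such as Vpreb3 (358152 bp) and Gfi1b (430407 bp), the nearest Brg1 summit was far. All 5 EBF1 peaks that remained after dTAG-13 lay at gene ends, at Hdlbp, Mphosph8, Pold4, Rtca and Kcnn1. Of the 967 Brg1 peaks 0 overlapped one, which by counting allows a share of up to 0.310%, against 0 of all 5206 (0%). With only 5 EBF1 peaks to meet, few of the 967 could overlap one, so this share says little. The nearest Brg1 summit was 513 bp away at Pold4 and 33006 bp or more at the other 4.

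Just inside the limit of 1 kb were Tbc1d10c at 993 bp (fold enrichment 4.22), Maff at 994 bp (3.99) and Lyn at 994 bp (5.36). Just outside were Mbnl2 at 1004 bp (5.34), Ripor1 at 1004 bp (3.64) and Bcap31 at 1008 bp (5.40). The median distance was 328 bp for summits nearest to a gene start and 380 bp for those nearest to an end.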

How the data were processed

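ChIP-seq of Brg1 and EBF1 was deposited as 1 peak list for each of 4 immunoprecipitations, and the 4 inputs were not analysed here. The submitters' processing notes list MACS2 2.2.7.1, Bowtie2 2.3.5.1, deepTools 3.3.2 and SAMtools 1.10, with GRCm38 and mm10 as builds. For read filters, calling settings and the control, nothing is given in the sources used here. Peaks were called per library. In the deposited lists, column 7 is the authors' fold enrichment, a linear ratio, the authors' p and q values are −log10 values, and the deposited score is the whole part of 10 times the −log10 q. The deposited summit offset, another kind of value, counts from 0.

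Fragments at the summit and local backgrounds of the Brg1 lists were solved from the authors' fold and p under a Poisson distribution, and a whole number of fragments gave the deposited −log10 p within 0.001 for 100% of the dTAG-13 peaks. The steps were tested on simulated data. Coordinates are 1-based, and genes and promoters are those of RefSeq for GRCm38.p6, which gave strand for 17274 of 21631 protein-coding genes. Genes were named by fixed rules, mainly the highest and widest peaks, the highest members of each list and peaks shared with other lists. Others were named after their values were seen, among them Ctla4, Rel, Pax5 and the further members of the B-lineage lists, the EBF1 DMSO genes without overlap and the chromosome 17 and X genes. The members and lists were chosen with earlier results of these data known. With 1 library per group no test was run. Intervals of shares are exact Clopper-Pearson at 95%, and a count of 0 allows 3 counts. Python 3.11.15, pandas 2.3.3 and scipy 1.17.1 were used. Some items are not reported here.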

Additional observations from a re-analysis of the deposited data

Results flagged for a closer look

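Counts of gene-end peaks moved in opposite directions under dTAG-13 for the 2 proteins. Taken as dTAG-13 over DMSO, the log2 ratio was -3.23 for EBF1 (47 peaks to 5) and 6.60 for Brg1 (10 to 967). The whole lists moved in the same directions, from 312 to 5 peaks for EBF1 and from 234 to 5206 for Brg1. The change is therefore not particular to gene ends. Each value rests on 1 library per condition, the antibodies and cell lines differ, and the Brg1 libraries differ 3.54 times in background, so this difference was not tested.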

How the results depend on the processing

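Of 55 alternative values for 8 results, 41 stayed within set bounds of the reported value. These were the counting interval for shares and 1.5 times for counts. For differences of medians they came from rank-based 95% intervals of both medians. The 41 include the overlap with the EBF1 dTAG-13 list, which no setting could move. It is 0 for the whole Brg1 list, and the nearest Brg1 summit is 513 bp from that of an EBF1 peak. The number of gene-end peaks was 318 when the −log10 q had to reach 5, 38 when it had to reach 10 and 21 among as many of the highest peaks as the Brg1 DMSO list holds, and the genes numbered 335 and 42 under the first pair of limits, since fewer peaks enter. The overlap with the Brg1 DMSO list was 1.57% and 2.63% under the same limits (5 of 318 and 1 of 38 peaks) and 0.207% under a reciprocal overlap of 50%, and that with the EBF1 DMSO list 2.63% at the stricter limit (1 of 38). The median width of gene-end peaks minus that of the others was -95.0 and -166 bp under these limits, against -45.0 bp. The difference in median fold enrichment, -0.188, was -0.111 with the 500 bp limit and -0.136 at the stricter limit on q. The share at gene starts was 86.1% with a 2 kb limit, 87.6% from a −log10 q of 5 and 84.4% from 10. Leaving out chromosome 17, chosen after the data had been seen, or high-background peaks moved none of the 8 results beyond these bounds. Depth limits these lists, with 17 fragments at the median gene-end summit. No paired analysis was possible because each group holds 1 library.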

Other observations

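Gene-end peaks were set beside genes that make no protein. A long non-coding RNA gene was within 1 kb of, or over, 132 of the 967 summits (13.7%, 11.5 to 16.0%) and 14.4% of the other 4230, and the intervals of these shares overlap. MicroRNA genes were near 7 gene-end summits (0.724%, 0.292 to 1.49%) and 9 others (0.213%, 0.0973 to 0.404%), and tRNA genes near 3 and 6. Variable segments of antigen receptor genes were within 1 kb of 0 gene-end summits and of 49 others (1.16%). Such segments are not counted as protein-coding genes here, so the rule by which members were taken bears on this split.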
